A study of Mus musculus with 18 samples.

Results

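Antigen presentation was examined through 10 genes of the mouse MHC class I and class II pathways. They were H2-Aa, H2-Ab1, H2-Eb1 and Cd74 of class II, and B2m, H2-K1, H2-D1, Tap1, Tap2 and Tapbp of class I. The genes were listed by symbol and found in the count table by matching its Ensembl identifiers to symbols, which gave 10 of the 43430 genes in the table. All 10 passed the filter on low counts.

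The libraries came from isolated quadriceps myofibers of young adult C57BL/6 mice (C57BL/6J in the study's methods). Each group held 3 libraries, and the 6 groups (18 libraries) were male and female mice given vehicle, weekly prednisone or daily prednisone for about a month. Prednisone is a glucocorticoid, a class of drug used to dampen immune responses. All mice were injected, the controls with a DMSO vehicle and the weekly mice with that vehicle on the days without prednisone, and the question was how the schedule of dosing and the sex of the animal shape the response of muscle. The myofibers were the part of a collagenase-digested muscle that a strainer held back, so other cells lying on the fibres can be carried along. By the study's account the replicates of a group are separate animals, and the labels number the libraries without saying what a number marks. Among libraries of the same group, female weekly libraries 1 and 2 were the least alike, with a chi-square of their counts of 219.9 per degree of freedom, where the other pairs ran from 12.7 to 83.7.

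MHC class I molecules sit on nearly all nucleated cells and show peptides from the cytosol to CD8+ T cells. MHC class II molecules are carried mainly by macrophages, dendritic cells and B cells, which use them to show peptides from engulfed material to CD4+ T cells. Class II transcription depends on the coactivator CIITA, and class I transcription is raised by interferon through IRF1 and NLRC5.

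Promoter sequence is shown for 2 class II and 2 class I genes, because the values below set these classes side by side. RefSeq promoters (GRCm38.p6, which has the coordinates of mm10) were in the reference table for 7 of the 10 genes. The motifs were searched on both strands in the 250 bases before the start. One was ATTGG, which reads CCAAT on the other strand. Another was TGACG, the core of the X2 box of class II promoters, and AANNGAAA, the core bound by interferon regulatory factors, was searched too. The last was AGAACA, 1 arm of the palindromic glucocorticoid receptor element. Capitals mark the matches in the stretches below, on either strand. The first 2 lie at chr17:34287847-34287917 on the minus strand and at chr17:34305788-34305856 on the plus strand. The others lie at chr17:34000348-34000457 on the minus strand and at chr2:122147530-122147658 on the plus strand.
H2-Aa: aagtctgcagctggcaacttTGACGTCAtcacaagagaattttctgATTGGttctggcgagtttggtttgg
H2-Eb1: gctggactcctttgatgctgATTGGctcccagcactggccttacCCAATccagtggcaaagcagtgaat
H2-K1: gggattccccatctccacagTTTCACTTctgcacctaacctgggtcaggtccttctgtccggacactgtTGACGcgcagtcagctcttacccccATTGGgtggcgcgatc
B2m: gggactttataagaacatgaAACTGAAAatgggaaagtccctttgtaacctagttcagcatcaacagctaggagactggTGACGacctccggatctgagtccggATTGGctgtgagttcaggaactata

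All 7 promoters held ATTGG, which stood in 34.5% of the 27025 RefSeq promoters of the same length. In the H2-Aa stretch, the capitals TGACGTCA hold 2 overlapping matches of TGACG, 1 on each strand. TGACG was also found in B2m, H2-K1, H2-D1 and Tap1, against 17.9% of all promoters, and it was not found in the H2-Eb1 or Tapbp window. AANNGAAA was found in H2-Aa (farther upstream than the stretch shown), B2m, H2-K1 and H2-D1, and in 21.6% of all promoters. The letters AGAACA stood in the window of B2m alone among the 7, in lower case just before the capitals AACTGAAA, and in 16.2% of all promoters. The full element, AGAACA with TGTTCT 3 bases on, was in none of the 7 and in 0.0037% of all promoters.

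Compared per length, B2m and the class I heavy chains stood highest among the 10 genes. B2m, which encodes the light chain shared by all classical class I molecules, averaged 218 ± 49.3 CPM per kb of exon (TMM-scaled CPM, divided by the length of the merged exons; SD, n = 18) and ranked 121 of 13529 tested genes with a length. The class I heavy chains H2-D1 and H2-K1 followed with 100.3 ± 26.7 and 64.2 ± 20.5 CPM per kb. Cd74, the invariant chain that escorts class II molecules to the endosome, reached 23.6 ± 6.07 CPM per kb, and Tapbp (tapasin, which tethers class I molecules to the peptide transporter) reached 13.9 ± 2.40. The others lay close together, at 7.06 ± 2.17 for H2-Eb1, 5.83 ± 1.45 for H2-Ab1, 5.09 ± 1.32 for Tap2, 4.55 ± 1.25 for H2-Aa and 3.50 ± 1.88 for Tap1. From H2-Eb1 downwards, each gene differed from the next by less than its SD over the libraries. The counts behind these levels ran from 66 reads (Tap1) to 5673 reads (H2-D1) in 1 library, and total counts per library ran from 10506661 to 14686654. The 8 myofibre markers were abundant in every library, with mean log2 CPM between 13.1 and 13.97.

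H2-K1 and H2-D1 are near-identical over parts of their sequence to other class I heavy chains, so the split of reads between these genes is uncertain. Tap1 overlaps exons of Psmb9 on the other strand, and Tapbp overlaps exons of Zbtb22. Whether the counting used strand is not given in the sources used here, so the reads of Tap1 and Psmb9 cannot be told apart in the shared stretch. Of the 10 genes, 8 lie in the MHC on chromosome 17, from the start of Tapbp at 33915899 to the end of H2-D1 at 35267499 (mm10). B2m lies on chromosome 2 from 122147686 to 122153083, and Cd74 lies on chromosome 18.

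In females, each class II gene was higher in all 3 weekly libraries than in any vehicle library. H2-Aa, the class II A alpha chain, stood at 18.4, 10.6 and 18.2 CPM in the 3 female vehicle libraries and at 24.5, 21.15 and 26.7 CPM in the weekly libraries. H2-Ab1, its beta chain partner, stood at 12.7, 9.45 and 18.1 CPM with vehicle and at 20.4, 18.3 and 24.1 CPM with weekly prednisone. All weekly libraries lay above all vehicle libraries for both chains. H2-Eb1, the E beta chain, stood at 13.8, 7.82 and 14.9 CPM with vehicle and at 17.9, 16.6 and 24.2 CPM with weekly prednisone. Cd74 stood at 34.9, 30.3 and 48.2 CPM with vehicle and at 49.9, 51.0 and 64.6 CPM with weekly prednisone. Here too no library of the 2 groups overlapped, although vehicle library 3 came within 2 CPM of the lowest weekly library for Cd74 and within 1 CPM for H2-Ab1.

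**Figure D1:**
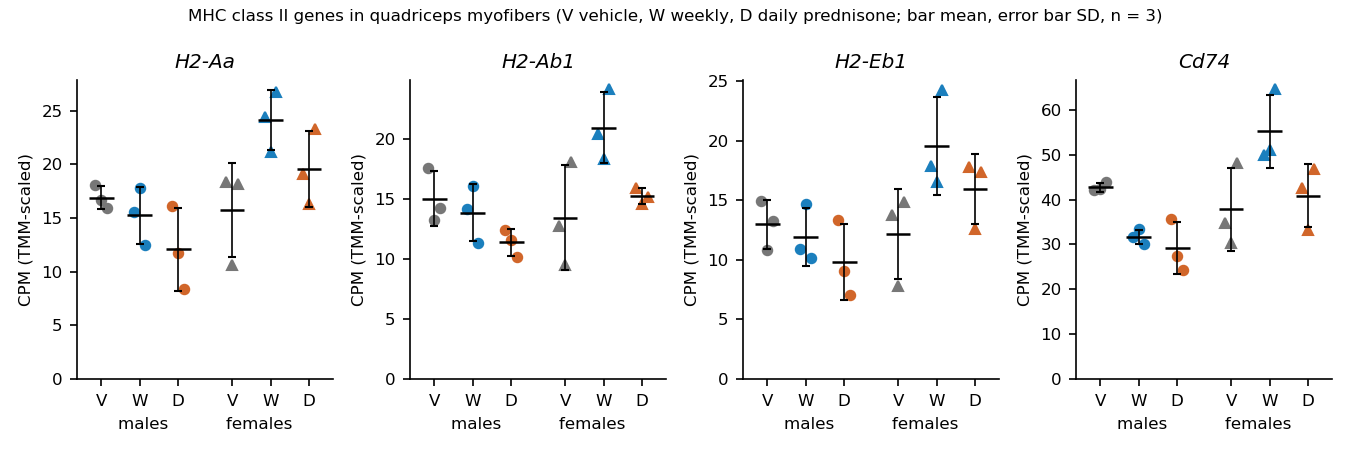
Levels of the 4 class II genes in each library, in TMM-scaled CPM from 0, with males left and females right of each panel and V, W and D for vehicle, weekly and daily prednisone. Points are libraries, bars are means and error bars are SD (n = 3). In females the weekly libraries sit above all vehicle libraries in every panel, and in males the 3 vehicle libraries of Cd74, at 42.05 to 43.8, sit above every treated library.

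The log2 fold changes for weekly prednisone against vehicle in females were 0.61 ± 0.23 (SE) for H2-Aa, 0.64 ± 0.20 for H2-Ab1, 0.68 ± 0.26 for H2-Eb1 and 0.54 ± 0.18 for Cd74. The median of the 4 was 0.63, beside 0.01 over all 13596 tested genes. None passed the test in edgeR's quasi-likelihood fit with Benjamini-Hochberg adjustment over all tested genes, where adjusted p was 0.318 for H2-Ab1, 0.361 for Cd74, 0.474 for H2-Aa and 0.484 for H2-Eb1. In this comparison edgeR called 0% of all tested genes, as did limma-voom, while DESeq2 called 152 genes (1.12%) and none of the 10. Before adjustment, p was under 0.05 for all 4 class II genes and for 7 of the 10 genes, against 1083 of the 13596 tested genes. Complete separation with weekly libraries on the higher side was found for 4.94% of all tested genes, and on the lower side for 3.13%. Vehicle library 2 had the lowest level of each class II gene among the female libraries, and without it the log2 fold changes ran from 0.38 for H2-Aa to 0.42 for H2-Eb1.

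The class I genes of weekly females had positive fold changes as well, with a wide spread within the weekly group. B2m stood at 149.7, 147 and 172 CPM in vehicle and 193, 244 and 285 CPM in weekly libraries, a log2 fold change of 0.62 ± 0.22 (adjusted p = 0.416). H2-K1, a classical heavy chain, stood at 126, 141 and 179 CPM with vehicle and at 178, 251 and 331 CPM with weekly prednisone (0.77 ± 0.27, adjusted p = 0.408). H2-D1, the other classical heavy chain of this strain, stood at 201, 208 and 274 CPM with vehicle and at 239, 386 and 414 CPM with weekly prednisone (0.61 ± 0.26, adjusted p = 0.561). B2m alone of the 6 class I genes was separated, and weekly library 1 fell within the vehicle range for both heavy chains. Without weekly library 1, all 6 class I genes were separated, beside 13.2% of all tested genes, with log2 fold changes from 0.45 (Tapbp) to 0.97 (H2-K1), and edgeR again called 0% of all tested genes (lowest adjusted p of the 10 genes 0.293). With the reads of all class I heavy chain genes of the table summed into 1 value, the log2 fold change was 0.62 ± 0.28 (adjusted p = 0.587).

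For the genes that load peptides onto class I, the weekly libraries were again uneven. Tap1, a subunit of the peptide transporter, stood at 18.04, 16.95 and 34.1 CPM with vehicle and at 11.3, 46.4 and 37.4 CPM with weekly prednisone. Tap2, the other subunit, stood at 18.1, 22.7 and 20.8 CPM with vehicle and at 17.6, 28.1 and 31.8 CPM with weekly prednisone. Tapbp stood at 46.15, 52.6 and 55.7 CPM with vehicle and at 48.7, 71.7 and 69.45 CPM with weekly prednisone. Weekly library 1 was below the vehicle mean for all 3 genes, and libraries 2 and 3 were above every vehicle library. The log2 fold changes were 0.45 ± 0.44, 0.33 ± 0.21 and 0.30 ± 0.15, and adjusted p was 0.939, 0.806 and 0.671. Over the 6 class I genes the median log2 fold change was 0.53.

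**Figure D2:**
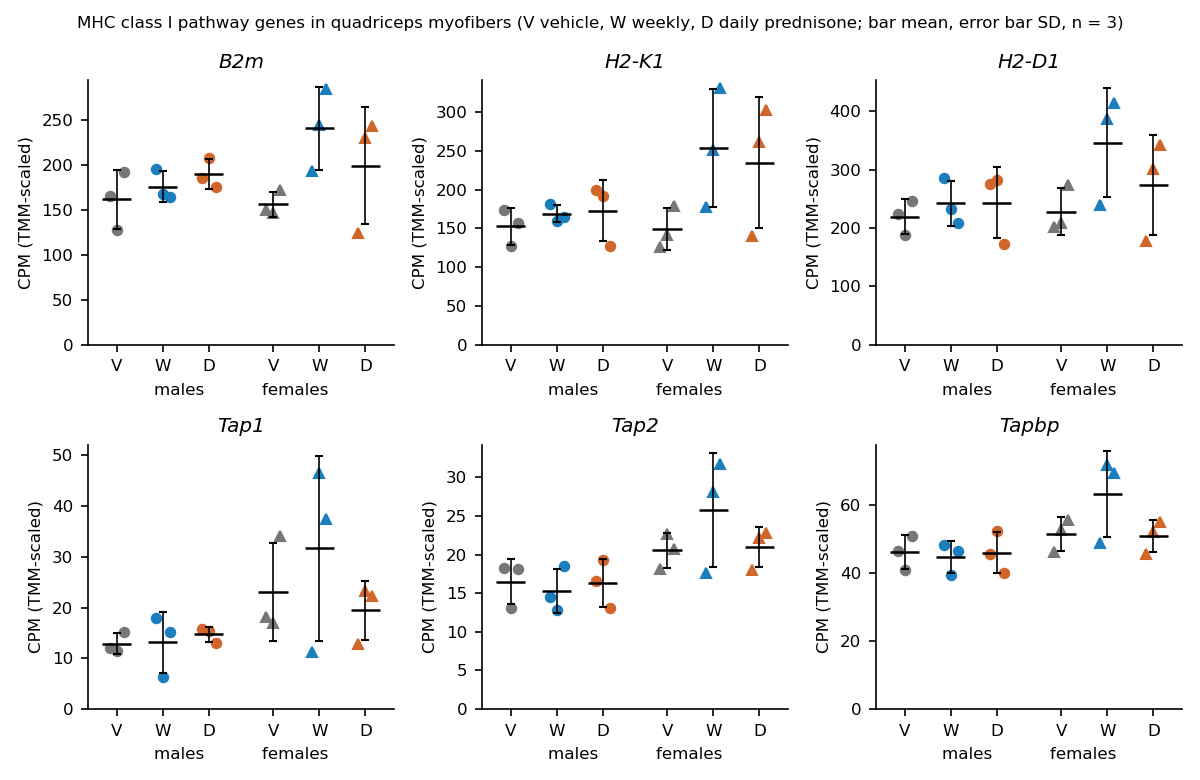
Levels of the 6 class I genes in each library, in TMM-scaled CPM from 0, drawn as for class II, with bars for means and error bars for SD (n = 3). In daily females 1 library lies well under the other 2 in the panels of B2m, H2-K1 and H2-D1. In weekly females this holds for H2-D1, while the libraries of B2m and H2-K1 are spread more evenly. The male groups overlap in all 6 panels.

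In males, no class II gene had its weekly libraries above those of vehicle. H2-Aa stood at 18.1, 16.7 and 15.9 CPM with vehicle and at 15.6, 17.8 and 12.5 CPM with weekly prednisone. H2-Ab1 stood at 17.6, 13.2 and 14.3 CPM against 14.2, 16.04 and 11.4 CPM, and H2-Eb1 at 14.9, 10.8 and 13.2 CPM against 10.9, 14.7 and 10.2 CPM. The groups overlapped for these 3 genes. Cd74 stood at 42.05, 42.4 and 43.8 CPM in vehicle and at 31.7, 33.3 and 30.2 CPM in weekly libraries. Its weekly libraries lay below all vehicle libraries, as for 8.97% of all tested genes (7.76% were separated on the higher side), with a log2 fold change of -0.43 ± 0.18 (edgeR adjusted p = 0.849). The median over the class II genes was -0.14 and over the class I genes 0.08, beside 0.01 over all tested genes. In weekly males edgeR called 0% of all tested genes, limma-voom called none either, and DESeq2 called 1 gene that was not among the 10. Cd74 was the 1 gene of the 10 with an unadjusted p under 0.05, beside 777 of the 13596 tested genes.

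Male daily libraries had the lowest mean level of each class II gene among the 6 groups. H2-Aa stood at 16.1, 11.8 and 8.42 CPM, H2-Ab1 at 12.4, 11.6 and 10.2 CPM, and H2-Eb1 at 13.3, 9.05 and 7.05 CPM in the 3 daily libraries. Cd74 stood at 35.6, 27.5 and 24.3 CPM. For H2-Ab1 and Cd74 every daily library lay below every vehicle library, as for 17.1% of all tested genes (16.4% on the higher side), while daily library 1 overlapped the vehicle range for H2-Aa and H2-Eb1. The log2 fold changes against vehicle were -0.55 ± 0.18 for Cd74 (edgeR adjusted p = 0.0756), -0.48 ± 0.23 for H2-Aa (0.238), -0.40 ± 0.20 for H2-Ab1 (0.249) and -0.40 ± 0.26 for H2-Eb1 (0.392). None of the 10 genes passed, in a comparison where 6.46% of all tested genes did. Cd74 was the 1 gene of the 10 with an unadjusted p under 0.05, beside 3101 of the 13596 tested genes. Cd74 passed with DESeq2, at a log2 fold change of -0.56 and an adjusted p of 0.0403, where 10.2% of all genes were called. It also passed when male vehicle and daily libraries were fitted alone (-0.55, adjusted p = 0.0425, 12.1% of genes called), and it did not pass with limma-voom. The class II median was -0.44 and the median over all tested genes 0.05.

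The class I genes of daily males overlapped their controls throughout. B2m stood at 165, 128 and 193 CPM with vehicle, at 195.5, 167 and 164 CPM with weekly and at 186, 208 and 176 CPM with daily prednisone. H2-K1 stood at 174, 127 and 157 CPM with vehicle, at 182, 159.9 and 165 CPM with weekly and at 199, 192 and 127 CPM with daily prednisone. H2-D1 stood at 225, 188 and 246 CPM with vehicle, at 285, 233 and 209 CPM with weekly and at 274.5, 282 and 173 CPM with daily prednisone. Daily library 3 had the lowest heavy chain levels of its group and also the lowest level of H2-Aa, H2-Ab1, H2-Eb1 and Cd74. Tap1 ran from 6.34 to 17.9 CPM, Tap2 from 12.9 to 19.3 CPM and Tapbp from 39.5 to 52.25 CPM over the 9 male libraries. The daily log2 fold changes of the 6 genes lay between -0.01 (Tap2) and 0.23 (B2m), with a median of 0.16.

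In daily females the mean class II levels lay between those of vehicle and weekly females. The daily libraries stood at 19.1, 16.3 and 23.3 CPM for H2-Aa, at 15.9, 14.6 and 15.2 CPM for H2-Ab1 and at 17.8, 12.6 and 17.4 CPM for H2-Eb1. Cd74 stood at 42.6, 33.15 and 46.9 CPM. All 4 overlapped the vehicle libraries, where 12.9% of all tested genes were separated on the higher and 10.2% on the lower side, and the log2 fold changes were 0.31 ± 0.23, 0.18 ± 0.20, 0.38 ± 0.26 and 0.11 ± 0.18 in the same order. For class I, B2m stood at 124, 229.8 and 243 CPM, H2-K1 at 140.0, 261 and 302 CPM and H2-D1 at 177, 300.3 and 343 CPM. Daily library 1 lay within or below the vehicle range for the 3 genes and libraries 2 and 3 lay above it. H2-K1 had the largest fold change of the 10 genes here, 0.66 ± 0.27 (edgeR adjusted p = 0.214). It was the 1 gene of the 10 with an unadjusted p under 0.05, beside 2354 of the 13596 tested genes. Of all tested genes edgeR called 0.382%, and of the 10 genes none by edgeR, DESeq2 or limma-voom. The medians were 0.24 for class II and 0.15 for class I, beside 0.01 over all tested genes.

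**Figure D3:**
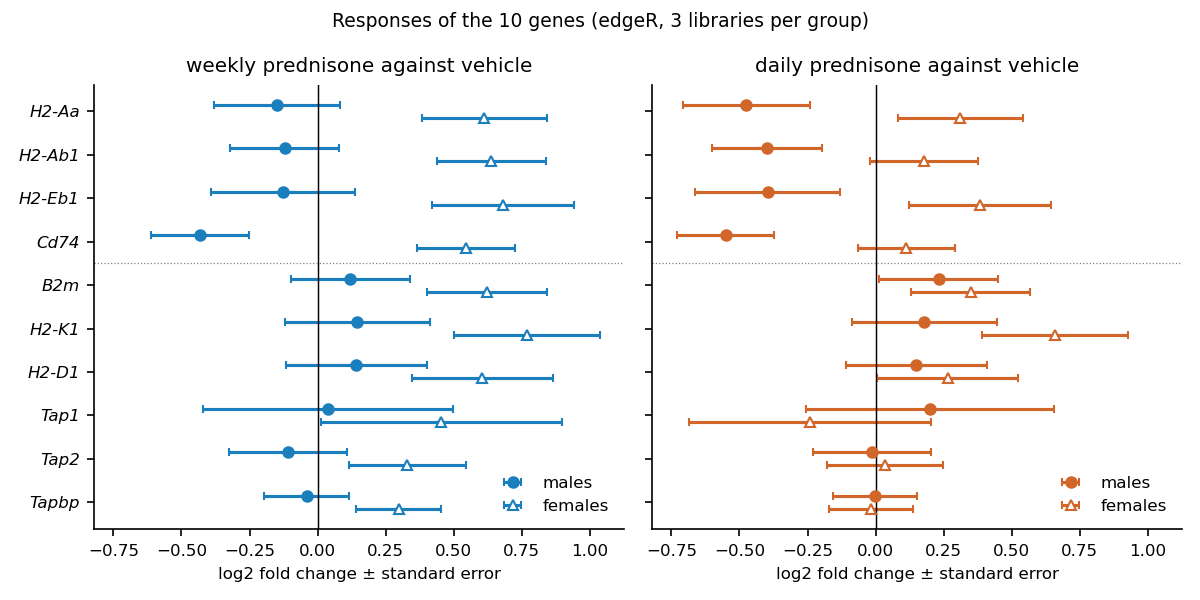
Log2 fold changes against vehicle with standard errors (edgeR, 3 libraries per group) for weekly prednisone on the left and daily prednisone on the right, filled circles for males and open triangles for females. The 4 class II genes, above the dotted line, lie at 0.54 to 0.68 in weekly females and at -0.55 to -0.40 in daily males.

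Whether males and females responded differently was tested with an interaction term. For weekly prednisone the female response exceeded the male response by 0.98 ± 0.25 on the log2 scale for Cd74, by 0.81 ± 0.37 for H2-Eb1, by 0.76 ± 0.33 for H2-Aa and by 0.76 ± 0.28 for H2-Ab1. All 4 had an unadjusted p under 0.05, as had 357 of the 13596 tested genes. The adjusted p was 1.0 for each, and edgeR, DESeq2 and limma-voom called 0% of all tested genes. For daily prednisone the differences were 0.79 ± 0.33 for H2-Aa, 0.78 ± 0.37 for H2-Eb1, 0.66 ± 0.25 for Cd74 and 0.58 ± 0.28 for H2-Ab1, with an adjusted p of 0.889 for each. Of these, H2-Aa and Cd74 had an unadjusted p under 0.05, as had 638 of all tested genes. Here edgeR and limma-voom called no gene and DESeq2 called 2, neither of them among the 10. The weekly and the daily differences share their vehicle libraries, so they are not separate evidence. The median difference of the class I genes was 0.45 for weekly and 0.08 for daily prednisone, beside 0.78 and 0.72 for class II, and 0.01 and 0.03 over all tested genes.

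With vehicle alone, the sexes did not differ detectably in any of the 10 genes. The log2 differences of females from males ran from -0.18 ± 0.18 (Cd74) to 0.84 ± 0.46 (Tap1, adjusted p = 0.537), where 0.765% of all tested genes were called. None of the 10 had an unadjusted p under 0.05 with edgeR, beside 1418 of the 13596 tested genes. DESeq2 and limma-voom called none of the 10. Tap1 averaged 23.04 ± 9.61 CPM (SD, n = 3) in female and 12.9 ± 2.03 CPM in male vehicle libraries, and its highest female vehicle library, number 3 at 34.1 CPM, set much of that spread.

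Over the 6 groups the order of Cd74 was female weekly (55.2 ± 8.17 CPM, SD, n = 3), male vehicle (42.8 ± 0.952), female daily (40.9 ± 7.03), female vehicle (37.8 ± 9.28), male weekly (31.7 ± 1.58) and male daily (29.1 ± 5.82). The female weekly libraries lay above all those of the next group, and every other pair of neighbours overlapped. H2-Ab1 likewise had female weekly first at 20.9 ± 2.96 CPM, clear of female daily at 15.2 ± 0.652, and male daily last at 11.4 ± 1.11. H2-Aa and H2-Eb1 had the same first and last group, at 24.1 ± 2.81 and 12.1 ± 3.87 CPM for H2-Aa and at 19.6 ± 4.08 and 9.82 ± 3.22 CPM for H2-Eb1, but neighbouring groups overlapped. For B2m the order ran from female weekly at 241 ± 45.9 CPM to female vehicle at 156 ± 13.8 CPM, with every pair of neighbours overlapping.

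Daily and weekly prednisone were also compared directly. By the study's methods, weekly mice last received prednisone 2 days before sacrifice, while daily mice were dosed every day. The schedule and the time since the last dose cannot be told apart in this comparison. In females the daily libraries of H2-Ab1 and Cd74 lay below all weekly libraries, as for 7.34% of all tested genes (9.83% on the higher side), with log2 differences of -0.46 ± 0.20 (edgeR adjusted p = 0.228) and -0.43 ± 0.18 (adjusted p = 0.214). These 2 were the genes of the 10 with an unadjusted p under 0.05, beside 2401 of the 13596 tested genes. The edgeR fit called 0% of all tested genes, DESeq2 called 546 (4.02%) and limma-voom 2, none of them among the 10. Since same-numbered libraries of these 2 groups had correlated deviations, the replicate number was also fitted as a block, and then edgeR called 522 genes (3.84%) and again none of the 10. With the block and these 6 libraries fitted alone it called 2 genes (0.0152%), and with the block over all groups 1 gene, neither fit calling any of the 10. An unadjusted p under 0.05 was found for 3 of the 10 genes in the fit that called 522 genes. With these 6 libraries fitted alone it was found for 6 of the 10. The share of all tested genes with such a p was not counted in either of these block fits. In males the log2 differences of the class II genes ran from -0.33 ± 0.23 (H2-Aa) to -0.12 ± 0.18 (Cd74). None of the 10 genes was separated (11.9% of all tested genes were on the higher and 12.7% on the lower side). No gene was called by edgeR or limma-voom, and none of the 10 by DESeq2, which called 1.65% of all genes. None of the 10 had an unadjusted p under 0.05, beside 1829 of the 13596 tested genes.

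Averaged over the sexes, the class II responses to daily prednisone lay near 0, from -0.22 ± 0.13 for Cd74 to -0.01 ± 0.18 for H2-Eb1. The class I heavy chain H2-K1 had 0.42 ± 0.19 (edgeR adjusted p = 0.151) and B2m 0.29 ± 0.15 (adjusted p = 0.227). None of the 10 passed with edgeR, DESeq2 or limma-voom, in a comparison where edgeR called 15% of all tested genes. Without female daily library 1, both B2m and H2-K1 passed, at 0.41 ± 0.12 (adjusted p = 0.0295) and 0.55 ± 0.16 (adjusted p = 0.0292), while the share of all tested genes called rose to 17.9%. For weekly prednisone, the mean over the sexes was 0.46 ± 0.19 for H2-K1 and 0.37 ± 0.15 for B2m, the 2 genes with an unadjusted p under 0.05, at adjusted p of 0.376 and 0.380, where edgeR and limma-voom called 0% of all tested genes and DESeq2 called 1.35% and none of the 10. Daily against weekly prednisone gave class II values from -0.37 ± 0.14 (H2-Ab1, adjusted p = 0.114) to -0.28 ± 0.13 (Cd74, adjusted p = 0.192), where edgeR called 8.17% of all tested genes and none of the 10, and DESeq2 and limma-voom also called none of the 10. H2-Ab1 and Cd74 were the 2 genes with an unadjusted p under 0.05, beside 3272 of the 13596 tested genes. For weekly prednisone against vehicle over both sexes, 1492 of all tested genes had such a p.

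Across the 18 libraries every pair of genes within a class was more closely correlated than any pair across the classes. These correlations describe libraries that share treatment groups and scaling and are not tested. Among the 6 pairs of class II genes Pearson's r of log2 CPM ran from 0.867 to 0.960, the highest for H2-Aa with H2-Eb1. Among the 15 pairs of class I genes it ran from 0.605 to 0.933, with H2-K1 and H2-D1 at 0.932, a pair whose reads may be shared. Within class I, B2m, H2-K1 and H2-D1 had 0.897 to 0.932 with each other, and Tap1, Tap2 and Tapbp had 0.818 to 0.933. Pairs between these 2 sets were lower or similar, at 0.605 to 0.829. Across the classes, 24 pairs ran from 0.306 (H2-Aa with Tap1) to 0.600. After the group means were taken out, the medians were 0.816 within class II, 0.755 within class I and 0.189 across the classes.

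**Figure D4:**
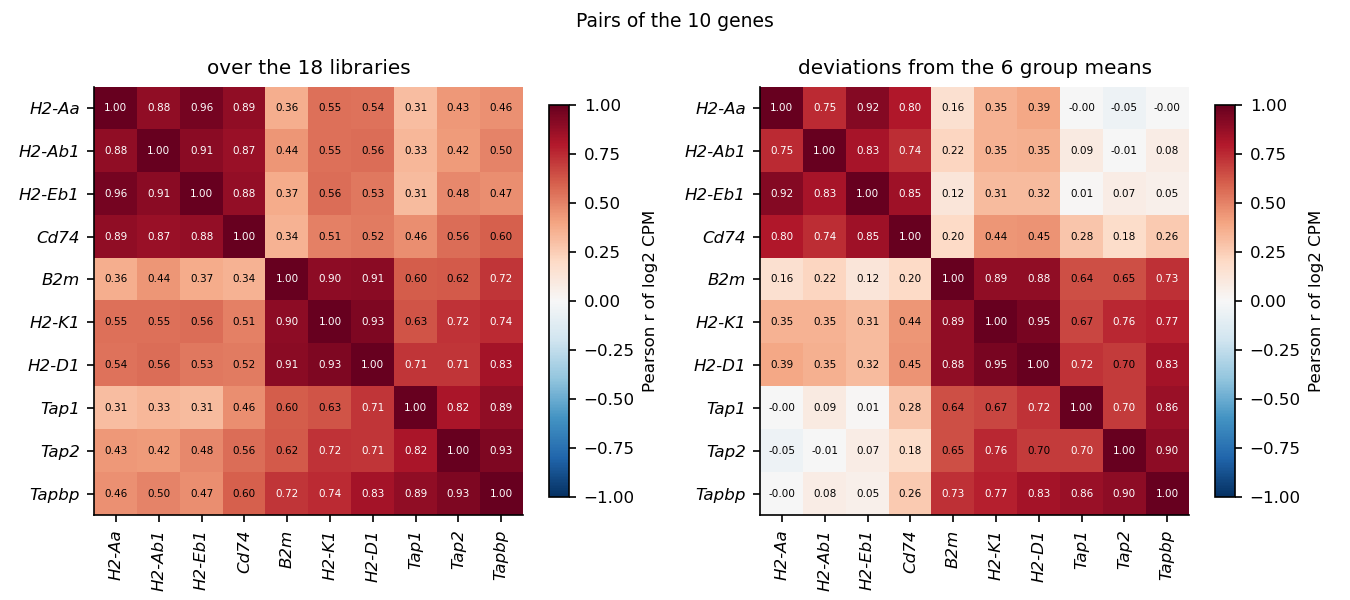
Pearson's r of log2 CPM for each pair of the 10 genes over the 18 libraries, on the left, and for their deviations from the 6 group means, on the right, on a colour scale from -1 to 1. Pairs within the 4 class II genes and within the 6 class I genes have higher r than any cross-class pair, with cross-class medians of 0.474 on the left and 0.189 on the right.

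The genes outside the 10 whose levels followed the mean log2 CPM of the class II genes most closely over the 18 libraries were Laptm5 (r = 0.868), Mpeg1 (0.837), Npc2 (0.822), Trappc6a (0.817) and Zbp1 (0.801). For the class I mean they were Cul7 (0.913), H2-T23 (0.905), Gbp2 (0.904), Parp10 (0.896) and Ptms (0.895). H2-T23 is itself a nonclassical class I heavy chain, and on deviations from the group means the 5 genes of the class I list had r from 0.852 to 0.904. On the same measure the class II list had lower values, at 0.850 for Laptm5, 0.811 for Zbp1, 0.620 for Npc2, 0.615 for Mpeg1 and 0.568 for Trappc6a.

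Of 14 further class II genes (peptide loading, endosomal proteases and costimulation), 6 passed the filter and none was called against vehicle in either sex or over both. The 2 with the smallest p were H2-DMa and Ifi30. H2-DMa, a chain of the chaperone that loads peptide onto class II, had -0.97 ± 0.29 in daily males (adjusted p = 0.0539) and 0.82 ± 0.27 in weekly females (adjusted p = 0.369). Its libraries did not overlap vehicle in either case, at 1.39, 1.38 and 1.37 CPM in daily males against 3.25, 2.06 and 2.81 CPM in vehicle males. Separation on the same side was found for 17.1% of all tested genes in daily males and for 4.94% in weekly females. Ifi30, a thiol reductase of the endosome, had -0.63 ± 0.21 for daily prednisone over both sexes (adjusted p = 0.0512). The class II transactivator Ciita did not pass the filter, at 0.0957 to 0.771 CPM. The E alpha pseudogene H2-Ea-ps had 0 counts in all 18 libraries, which allows up to 0.286 CPM in the shallowest library, and C57BL/6 mice are known to carry a defective E alpha gene, which leaves them without an E molecule at the cell surface although H2-Eb1 is transcribed.

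Of 10 further class I pathway genes (immunoproteasome, peptide trimming and chaperones), all were tested. Psme1, a subunit of the PA28 proteasome activator, fell in daily males by 0.55 on the log2 scale (SE 0.12, edgeR adjusted p = 0.0137). Averaged over both sexes it fell by 0.28 (adjusted p = 0.0299). That mean rested on the males. In females Psme1 stood at 30.65, 35.6 and 30.45 CPM with vehicle and at 30.95, 32.5 and 33.2 CPM with daily prednisone. Of all tested genes, 6.46% were called in daily males and 15% over both sexes. Erap1, which trims peptides in the endoplasmic reticulum, rose over both sexes by 0.37 ± 0.11 with daily prednisone (adjusted p = 0.0337). In weekly females all 10 fold changes were positive, with a median of 0.22 and none called. Psmb9, Psme1 and Psme2 were lower with daily than with weekly prednisone over both sexes, by log2 differences of -0.84, -0.29 and -0.42 (adjusted p = 0.0321, 0.0372 and 0.0341). In that comparison edgeR called 8.17% of all tested genes. Psmb9 is the gene that overlaps Tap1.

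Of 13 other class I heavy chains, 9 were tested and H2-Q10 was called. H2-Q10, a secreted nonclassical heavy chain, rose with daily prednisone over both sexes by 1.84 ± 0.41 (adjusted p = 0.0084), where 15% of all tested genes were called. It stood at 2.72, 3.83 and 3.44 CPM in male vehicle and at 14.8, 9.43 and 7.34 CPM in male daily libraries. In females it stood at 5.08, 4.67 and 7.34 CPM with vehicle, at 30.5, 9.76 and 34.15 CPM with weekly and at 8.45, 13.6 and 46.5 CPM with daily prednisone. The weekly libraries lay above all vehicle libraries in both sexes as well, as for 7.76% of all tested genes in males and 4.94% in females. The weekly mean of H2-Q10 over the sexes was 1.65 ± 0.41 (adjusted p = 0.189). Its highest values, in female weekly libraries 1 and 3 and daily library 3, came in the 3 libraries with the highest summed level of 7 adipocyte markers, at 3350, 5337 and 3142 CPM against 308 to 1436 CPM in the others, and the part of these markers in the H2-Q10 values was not tested. Its reads may be shared with the other H2-Q genes. Of 19 regulators, 18 were tested, and the interferon receptor kinases Jak1 and Jak2 rose in daily males by 0.52 ± 0.12 (adjusted p = 0.0196) and 0.46 ± 0.13 (adjusted p = 0.0409). Among all tested genes 6.46% were called in daily males. With daily prednisone over both sexes 2 regulators were called higher, where 15% of all tested genes were called, and none in females alone. In females Jak1 stood at 127.8, 116.2 and 108.7 CPM with vehicle and at 150.9, 128 and 116.6 CPM with daily prednisone. Jak2 stood at 40.73, 32.49 and 36.09 CPM against 45.08, 48.06 and 45.25 CPM, separated as were 12.9% of all tested genes. No other regulator was called against vehicle, and the class I transactivator Nlrc5 ran from 2.55 to 9.87 CPM.

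Markers of the cells that carry class II were read beside these values. In a bulk library, fewer cells of a type and less RNA per cell cannot be told apart. All 10 macrophage markers were tested, and in weekly females all 10 had positive fold changes, with a median of 0.67. Of these, 6 had an unadjusted p under 0.05 and none was called by edgeR, and DESeq2 called 2. The mean log2 CPM of the 10 markers was 2.49, 1.69 and 2.40 in female vehicle and 2.90, 2.67 and 3.20 in female weekly libraries, and the class II mean was 4.21, 3.66 and 4.47 against 4.70, 4.59 and 4.99. Female vehicle library 2 was lowest and female weekly library 3 highest on both. When either of these 2 libraries was left out, 3 of the 10 markers had an unadjusted p under 0.05. The part of the macrophage markers in the class II values of weekly females was not tested.

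**Figure D5:**
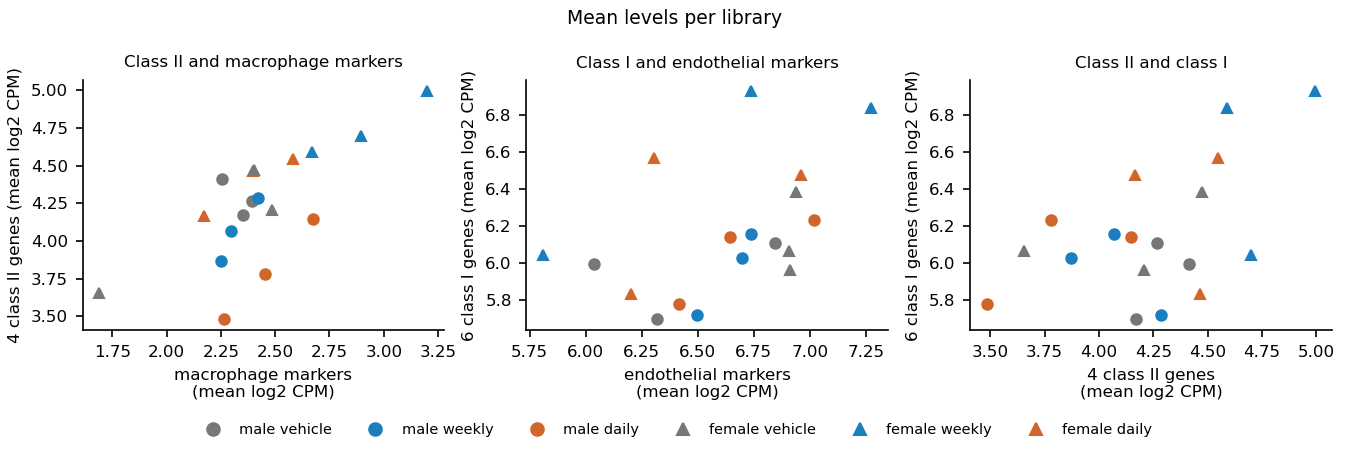
Mean log2 CPM per library of the 4 class II genes against 10 macrophage markers (left), of the 6 class I genes against 7 endothelial markers (middle) and of the class I against the class II genes (right), with circles for males, triangles for females and colours for treatment. The female weekly libraries lie at the upper right of the left panel, from 2.67 to 3.20 for the markers and from 4.59 to 4.99 for class II.

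In daily males the macrophage markers had a mean log2 CPM of 2.67, 2.45 and 2.26, overlapping the 2.25, 2.35 and 2.39 of vehicle libraries. Of the 10 markers 4 had positive fold changes, the median was -0.04, and Cd68, a lysosomal glycoprotein, rose by 1.72 ± 0.30 (adjusted p = 0.00786). Cd68 was the 1 marker called and raised the mean of the list, so that mean does not show the direction of most markers. The class II mean in the same libraries was 4.15, 3.78 and 3.48 against 4.41, 4.17 and 4.27. Of 8 dendritic cell markers 4 passed the filter, and their mean log2 CPM ran from 0.10 to 1.37 over the 18 libraries, at 0.36 to 1.01 in daily males and 0.41 to 0.52 in vehicle males. Zbtb46 ran from 6.68 to 23.9 CPM, while Clec9a, Cd209a and Batf3 reached at most 2.01 CPM and Batf3 was at 0 in some libraries. The mean thus rests largely on genes with few reads and says little of dendritic cells. None of 5 B cell or 7 T and NK cell markers passed the filter. Ms4a1, a B cell surface protein, reached at most 0.230 CPM and was at 0 in at least 1 library. Ptprc, a marker of leukocytes in general, ran from 0.109 to 2.30 CPM and was lowest in female vehicle library 2.

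Female weekly library 1 and daily library 1, the lowest of their groups for the class I genes, were also low in endothelial and fibroblast markers. The 7 endothelial markers had a mean log2 CPM of 5.81 in female weekly library 1 and 6.20 in female daily library 1, and 6.31 to 7.27 in the other female libraries. The class I mean was 6.04 and 5.83 in the former and 5.96 to 6.93 in the latter. The 7 fibroblast markers had a mean log2 CPM of 6.64 in weekly library 1 and 6.42 in daily library 1, the lowest of their groups. In female vehicle libraries it ran from 6.82 to 8.05. The endothelial value of 6.31 was that of female daily library 3, close to daily library 1. Daily library 3 had the highest B2m, H2-K1 and H2-D1 levels of the daily females, at 243, 302 and 343 CPM. Its fibroblast mean, 7.63, was the highest of that group. The interferon regulatory factor gene Irf1 stood at 19.03 and 15.9 CPM in female weekly library 1 and daily library 1. It stood at 149.7 to 392 CPM in the other female libraries and at 62.7 to 241 CPM in the males. Irf8, of the same family, stood at 3.75 and 7.99 CPM in them and at 14.9 to 33.5 CPM in the other female libraries. Both genes were chosen after their values were seen. The mean log2 CPM of 7 adipocyte markers was higher in all weekly and daily libraries than in vehicle libraries of the same sex. It was 4.28 to 7.92 in weekly and 3.67 to 3.80 in vehicle females. Taken singly, 5 of the 7 markers were separated from vehicle on the higher side in weekly females and 6 in daily females. In males 5 were separated with each regimen. The part of any of these marker lists, or of these factors, in the values of the 10 genes was not tested.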

How the data were processed

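Poly(A) RNA from 18 libraries of isolated quadriceps myofibers was analysed as 6 groups of 3 by sex and treatment, as the titles give them. The deposited table held raw counts of reads for each gene, from the authors' alignment to mm10. The submitters' processing notes name TopHat2 2.1.0, Bowtie2 2.2.6 and HTSeq, and the builds mm10 and mm9, without roles. The strand setting and the annotation release are not given in the sources used here. All its library columns were used. A symbol was found for 42462 of the 43430 Ensembl identifiers, and exon lengths came from GENCODE mouse release M21, which gives the same span for 33497 of the identifiers.

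Counts were fitted in R 4.3.3 with edgeR 4.0.16 (filterByExpr with a minimum count of 10, TMM factors from 0.861 to 1.16, robust quasi-likelihood fit of 6 group means over all 18 libraries, common biological coefficient of variation 0.224). Two-sided p-values of the 13596 tested genes were adjusted after Benjamini and Hochberg, with calls at adjusted p under 0.05. The F statistic and the fold change gave the standard errors. Log2 CPM used a prior count of 2, and a list's level was the mean log2 CPM of its tested genes. DESeq2 1.42.0, limma-voom (limma 3.58.1), other scalings and filters, fits of the compared groups alone, a replicate block and leaving out each library were alternatives. The steps were tested on simulated data. Total counts from 10506661 to 14686654 set the counting error, and the 3 libraries per group limit the precision as well.

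The 10 genes and the lists were chosen with earlier results of these data known. From each related list the genes called in a comparison with vehicle were named, or, where none was called, the 2 with the smallest p, and for each class the 5 genes with the highest r. Genes named from comparisons of daily with weekly prednisone, and marker genes, were chosen after their values were seen. Some genes of the lists are not reported by name here. The deviations from the group mean correlated between same-numbered libraries of daily and weekly females (r = 0.501, 0.483 and 0.439 over genes). Their replicate numbers in the titles were therefore treated as pairs, from the data and not from a label. The column names of the counts carry numbers of their own, which differ between the libraries of each such pair. No other pair of groups of the same sex had all 3 values above 0.1, and their values ran from -0.318 to 0.279. The block for these 6 libraries was added after the data were seen.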

Additional observations from a re-analysis of the deposited data

Results flagged for a closer look

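For 3 responses every library of one sex lay on one side of the vehicle mean of that sex and every library of the other sex on the opposite side. The share of all tested genes with this pattern was not counted. The daily response of H2-Aa was below in 3 of 3 males and above in 3 of 3 females, with a difference of 0.79 ± 0.33 on the log2 scale (edgeR interaction, adjusted p = 0.889). The daily response of H2-Ab1 had the same directions, with a difference of 0.58 ± 0.28 (adjusted p = 0.889). For both genes the female vehicle mean was lowered by library 2, at 10.6 CPM for H2-Aa and 9.45 CPM for H2-Ab1. When 1 library was left out, the female daily log2 fold change fell as low as 0.09 for H2-Aa and -0.02 for H2-Ab1. The weekly response of Cd74 was below in 3 of 3 males and above in 3 of 3 females, with a difference of 0.98 ± 0.25 (adjusted p = 1.0). None of the 3 interaction tests passed after adjustment over all tested genes.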

How the results depend on the processing

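The number of the 10 genes called was 0 in each of the 12 comparisons, and it differed under 3 alternatives. In daily males it was 1 with DESeq2 and 1 with the compared groups fitted alone, Cd74 in both (-0.56, adjusted p = 0.0403, and -0.55, adjusted p = 0.0425), and the cause was not tested. For daily prednisone over both sexes, leaving out each library in turn gave 0 to 2 calls, with 2 (B2m and H2-K1) without female daily library 1, where 17.9% of all tested genes were called. Leaving out each library gave 0 calls in the other 11 comparisons. With the replicate number as a block, 0 of the 10 genes were called in each comparison, also where the block covered only the daily and weekly female libraries, so it changed no call, though in daily females it lowered the genes called over the whole table from 52 to 8. Of 1600 refitted fold changes of the 10 genes, 93 changed sign, and in all 93 the reported value was smaller than its standard error. Another scaling moved the median of all genes by -0.0157 to 0.0104 on the log2 scale. Macrophage markers with an unadjusted p under 0.05 in weekly females numbered 3 to 7 when a library was left out, 3 without female vehicle library 2 or without female weekly library 3. Tap1 had the largest standard errors of the 10 genes against vehicle, up to 0.46 on the log2 scale. Its counts of 66 to 485 reads per library were near those of H2-Ab1 (87 to 313), whose standard errors were smaller. What set the precision of Tap1 was not tested.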
